A study of Mus musculus with 10 samples.

Results

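The genes described here are 7 genes of the mouse protamine and transition protein group: the transition proteins Tnp1 and Tnp2, the protamines Prm1 and Prm2, the protamine-like Prm3, and the linker histones H1fnt and Hils1. They were chosen by name and are 7 of the 36806 genes listed in each of 4 expression tables, and all 7 were found in all 4. The study sequenced mRNA from Ago4-/- and Ago4+/+ littermates of the C57BL/6 strain. Ago4 codes for one of the Argonautes, the proteins that carry small RNAs. The material came from mice of 70 days (spermatocytes at pachytene and at leptotene/zygotene) and from young mice of 3 and 8 days (whole testes), with 1 library per genotype in each. The nature of the Ago4 deletion, the number of animals behind a library and the way the spermatocytes were isolated are not given in the sources used here. The tables compare a second condition with a first, and no label says which is Ago4-/-. No genotype is therefore attached to either condition. The values of the 2 conditions are those of 1 library each, with no replicate, so differences between them describe 2 libraries and not 2 genotypes. The pre-meiotic table is young whole testis, but neither age is tied to it by a label.

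In mouse spermatids, histones are removed from DNA and replaced first by transition proteins and then by protamines, which pack the sperm nucleus tightly. The genes for these proteins are known to be transcribed in round spermatids, after meiosis, and their mRNAs are stored for days before they are translated in elongating spermatids. A leptotene, zygotene or pachytene spermatocyte is an earlier cell, still in the first meiotic prophase. The transcription factor CREM is known to act on promoters of this kind through cAMP response elements.

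Tnp2, Prm3, Prm2 and Prm1 lie side by side on chromosome 16, in the order given, within 8951 bp (positions 10788029 to 10796979 as the tables give them, on a genome build not given in the sources used here). Tnp1 is on chromosome 1 (73061657 to 73062473), H1fnt on chromosome 15 (98086413 to 98087738) and Hils1 on chromosome 11. The locus that the tables give for Hils1 spans 13537 bp (94824105 to 94837641) and also holds Sgca, a sarcoglycan gene. Libraries made without a step that keeps the strand cannot tell reads of overlapping genes apart. RefSeq (GRCm38.p6, a build whose coordinates are not those of the tables) has a promoter for all 7 genes, with H1fnt listed there as H1f7. The 150 bases before the transcription start are shown for the 5 genes whose promoters held a searched motif. Each is written 5′ to 3′ on the gene's own strand, and capitals mark the motif matches.
Tnp1, chr1:73015900-73016049, minus strand: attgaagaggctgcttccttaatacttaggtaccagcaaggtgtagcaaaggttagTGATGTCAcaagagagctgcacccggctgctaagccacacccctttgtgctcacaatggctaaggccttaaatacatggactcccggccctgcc
Prm1, chr16:10796824-10796973, minus strand: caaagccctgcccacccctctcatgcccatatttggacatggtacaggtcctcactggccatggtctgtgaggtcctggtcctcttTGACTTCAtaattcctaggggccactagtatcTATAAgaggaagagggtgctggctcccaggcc
Prm3, chr16:10790915-10791064, minus strand: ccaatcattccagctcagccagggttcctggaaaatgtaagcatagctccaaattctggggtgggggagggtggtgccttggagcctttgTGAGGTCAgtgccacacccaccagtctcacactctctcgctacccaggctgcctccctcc
Tnp2, chr16:10788656-10788805, minus strand: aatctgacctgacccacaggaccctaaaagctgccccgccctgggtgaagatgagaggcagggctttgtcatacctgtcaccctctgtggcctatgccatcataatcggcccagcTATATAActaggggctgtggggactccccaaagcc
Prm2, chr16:10792106-10792255, minus strand: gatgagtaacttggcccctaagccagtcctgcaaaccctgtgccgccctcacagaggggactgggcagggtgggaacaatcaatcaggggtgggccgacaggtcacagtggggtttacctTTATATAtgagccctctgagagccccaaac
The letters searched on both strands of the 250 bases upstream were TGACGTCA, the full cAMP response element, its looser form TGANNTCA, TATAA and TATATA. Every match to the full element would also match the looser form, and TATAA and TATATA can overlap. The full element was in 0 of the 7 promoters, against 1.55% of all 32851 RefSeq promoters of the same length. TGANNTCA was found in Tnp1 from 94 bases before the start (position -94), in Prm1 from position -64 and in Prm3 from position -60, which is 3 of 7, against 11.9% of all promoters. TATAA was found in Tnp2 at -33, in Prm1 at -32 and, on the other strand, in Prm2 at -30, which is 3 of 7, against 22.8% of all promoters. TATATA was found in Tnp2 at -35 and in Prm2 at -29, which is 2 of 7, against 5.25%. The promoters of H1fnt and Hils1 held none of these letters in this window. A match is a run of letters and not a shown binding site.

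Across the material, the 7 genes formed a steep series that peaked in the preparation labelled leptotene/zygotene and not in the one labelled pachytene. Levels are given as FPKM, fragments per kilobase of transcript scaled to the total of mapped fragments, which takes account of transcript length. The tables were normalized separately, so differences between tables are descriptions with no test. In bulk material, fewer cells of a type and less RNA per cell cannot be told apart. The genes are taken by role, transition proteins first.

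Tnp1, the first transition protein, takes part in the exchange of histones for protamines in the mouse spermatid. It had 0.605 FPKM in the second and 1.42 FPKM in the first condition at day 3, and 17.6 and 23.2 FPKM in the pre-meiotic table, again with the second condition first. In the leptotene/zygotene table it had 17166 FPKM in the second and 15006 FPKM in the first condition, and 2712 and 2258 FPKM at pachytene. No value of one table overlapped with those of another table. Tnp2, a zinc-binding transition protein, had 0.189 and 0.321 FPKM at day 3, 12.2 and 12.0 FPKM in the pre-meiotic table, 8161 and 7883 FPKM at leptotene/zygotene and 1392 and 1241 FPKM at pachytene, the second condition given first in each pair. Tnp1 was above Tnp2 in all 8 conditions. At leptotene/zygotene the ratio of Tnp1 to Tnp2 was 2.10 in the second and 1.90 in the first condition, and at pachytene it was 1.95 and 1.82.

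Prm1 and Prm2 encode the protamines of mature mouse sperm, and Prm2 is made as a precursor that is trimmed after it binds DNA. Prm1 was listed at 0 in the second condition of the day 3 table and had 0.417 FPKM in the first. It had 13.7 FPKM in the second and 10.95 FPKM in the first condition of the pre-meiotic table, 9509.6 and 8179 FPKM at leptotene/zygotene, and 1712 and 1074 FPKM at pachytene. The step in level from the pre-meiotic to the leptotene/zygotene table was far larger than any gap between the conditions of one table. Prm2 had 0.0787 FPKM in the second condition at day 3 and was listed at 0 in the first. It had 16.6 FPKM in both conditions of the pre-meiotic table, 18799.8 FPKM in the second and 14183 FPKM in the first condition at leptotene/zygotene, and 2950.5 and 1989 FPKM at pachytene. Prm2 was above Prm1 in both conditions of the 3 later tables, with a ratio of Prm2 to Prm1 of 1.98 in the second and 1.73 in the first condition at leptotene/zygotene, and of 1.72 and 1.85 at pachytene.

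Prm3 lies between Tnp2 and Prm2 and encodes an acidic protein that is known from the cytoplasm of mouse spermatids and does not resemble a protamine in charge. It was listed at 0 in the second condition at day 3 and had 0.136 FPKM in the first. Its values were 0.685 and 1.02 FPKM in the pre-meiotic table, 741 and 793 FPKM at leptotene/zygotene and 119.8 and 183 FPKM at pachytene, again with the second condition first. Prm3 was thus below each of its 3 neighbours in the cluster at these 3 stages. A gene just outside the cluster did not share the series: Socs1, a suppressor of cytokine signalling chosen for its position, had 0.495 FPKM in the second and 0.180 FPKM in the first condition at leptotene/zygotene, and 3.05 and 5.76 FPKM in the pre-meiotic table.

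H1fnt, a linker histone that marks the apical pole of the mouse spermatid nucleus, had 0.0292 FPKM in the second condition at day 3 and was listed at 0 in the first. It had 0.878 FPKM in the second and 0.745 FPKM in the first condition of the pre-meiotic table, 715 and 659.8 FPKM at leptotene/zygotene, and 137 and 143 FPKM at pachytene. Hils1, a linker histone of elongating spermatids in the mouse, had 0.0552 and 0.0537 FPKM at day 3, the second condition first. In the pre-meiotic table it had 1.90 FPKM in the second condition and was listed at 0 in the first. It had 530.1 FPKM in the second and 709 FPKM in the first condition at leptotene/zygotene, and 211 and 315 FPKM at pachytene. Sgca, which shares the Hils1 locus, had 12.4 and 11.6 FPKM at leptotene/zygotene and 21.1 and 19.0 FPKM at pachytene, the second condition first, so its listed level was far below that of Hils1.

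**Figure D1:**
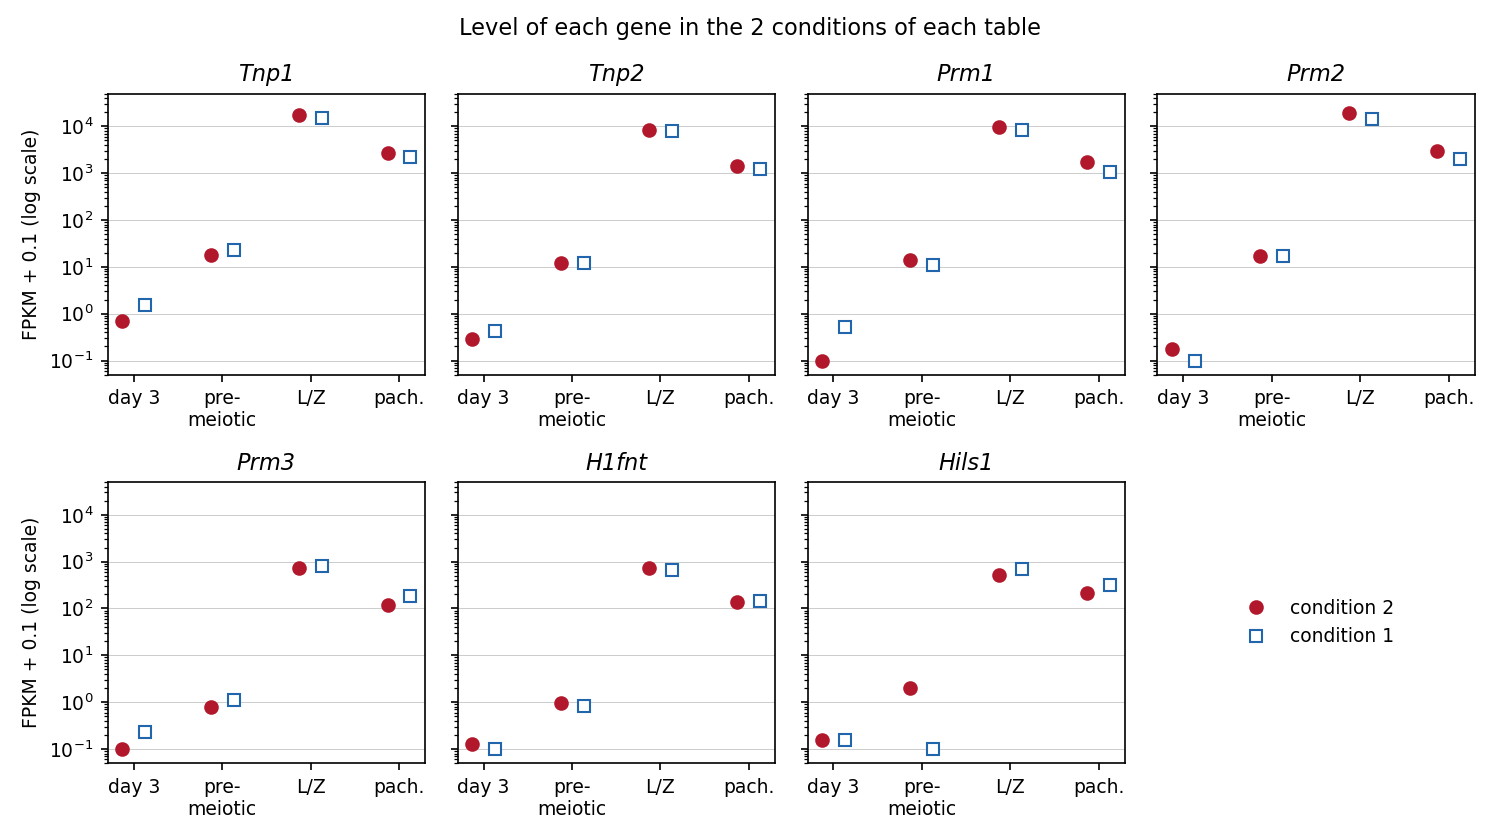
Level of each of the 7 genes (FPKM + 0.1, log scale) in the 4 tables, set in the order of their labels, where L/Z is leptotene/zygotene, pach. is pachytene, filled circles are the second and open squares the first condition, 1 library each. All 7 genes are highest in the leptotene/zygotene table, where Prm2 reaches 18799.8 FPKM, and the 2 conditions lie close together at that stage and at pachytene.

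FPKM is scaled to transcript length, and how well this holds for loci of 407 to 817 bp (Tnp1 and the cluster genes) was not tested. By FPKM, Prm2 and Tnp1 were the highest of the 7 at leptotene/zygotene and pachytene. Prm1 came next and then Tnp2, except that Tnp2 was above Prm1 in the first condition at pachytene. Prm2 was above Tnp1 in the second conditions of both tables, and Tnp1 above Prm2 in the first conditions. Neighbours in this order therefore did not keep apart in both libraries. Among all 36806 genes listed, the ranks at leptotene/zygotene in the second and first condition were 5 and 6 for Prm2, 6 and 4 for Tnp1, 9 and 9 for Prm1, and 12 and 10 for Tnp2. At pachytene the ranks were 11 and 29 for Prm2, 14 and 27 for Tnp1, 29 and 64 for Prm1, and 44 and 54 for Tnp2. The 7 genes together held 5.30% of the summed FPKM of all genes in the second and 4.74% in the first condition at leptotene/zygotene, 1.17% and 0.870% at pachytene, and 0.00868% and 0.00859% in the pre-meiotic table.

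The mix of the 7 transcripts varied far less than their amount. Tnp1, Tnp2, Prm1 and Prm2 made up 94.5% of the summed FPKM of the 7 genes in the second and 97.3% in the first condition of the pre-meiotic table, 96.4% and 95.4% at leptotene/zygotene, and 94.9% and 91.1% at pachytene. The share of Tnp1 was 27.7% and 35.9% in the pre-meiotic table, 30.9% and 31.6% at leptotene/zygotene, and 29.4% and 31.4% at pachytene, the second condition first. The share of Hils1 was 2.28% in the second and 4.37% in the first condition at pachytene, against 0.953% and 1.49% at leptotene/zygotene. It was 2.99% in the second condition of the pre-meiotic table, with Hils1 listed at 0 in the first. At pachytene Prm1 was 8.12 times Hils1 in the second condition and 3.41 times Hils1 in the first. At leptotene/zygotene the corresponding ratios were 17.9 and 11.5.

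**Figure D2:**
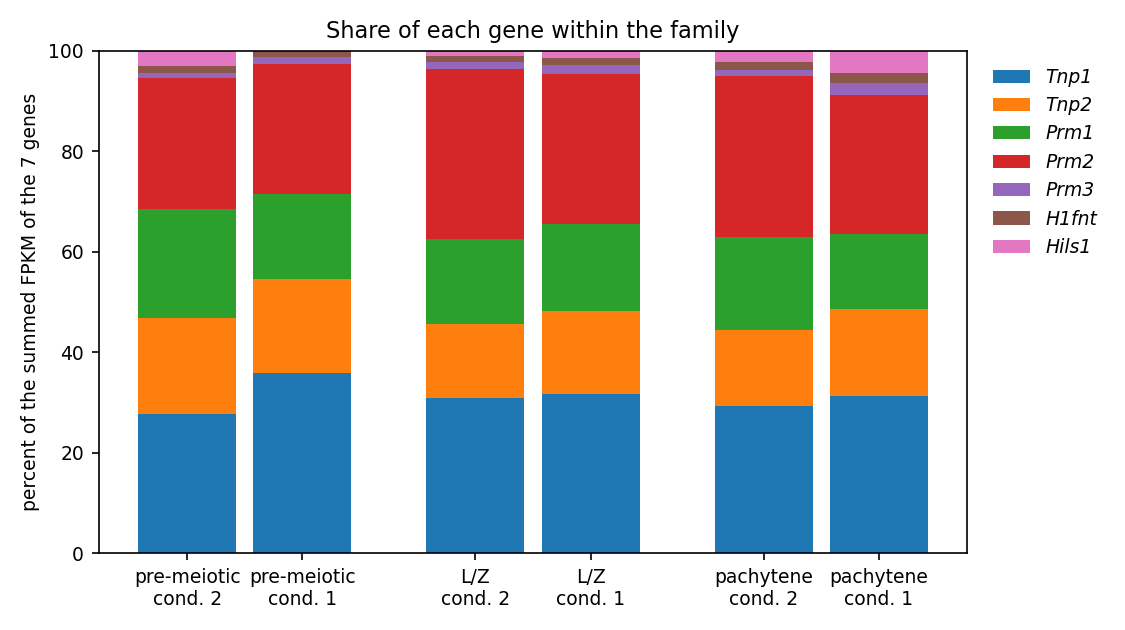
Share of each gene in the summed FPKM of the 7 genes (percent), as stacked bars for the second (left) and first (right) condition of the pre-meiotic, leptotene/zygotene (L/Z) and pachytene tables, 1 library per bar. Tnp1, Tnp2, Prm1 and Prm2 fill between 91.1% and 97.3% of each bar, and Hils1 is listed at 0 in the first condition of the pre-meiotic table.

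The question of when in the germline these genes are on was put as a count: a gene is counted as higher at one stage where both of its values there are at least 2-fold above both values of the other (0.1 FPKM added to each). In the pre-meiotic table, 6 of the 7 genes were higher than at day 3, all but Hils1, against 7.49% of the 22082 genes with at least 1 FPKM in any condition. That count was 4 with 1 FPKM added in place of 0.1, and 5 at a 4-fold threshold. In the leptotene/zygotene table, 7 of 7 were higher than in the pre-meiotic table, against 21.6% of all genes. At pachytene, 0 of 7 were higher than at leptotene/zygotene, where 8.23% of all genes were. At pachytene, 6 of 7 were lower than at leptotene/zygotene, all but Hils1, against 5.14% of all genes. The members are co-expressed genes known for one cell type, so these counts are not independent of each other.

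Sizes of these steps are ratios of mean levels, each the mean of 2 libraries of different genotype and not of replicates. The leptotene/zygotene mean was 789.7 times the pre-meiotic mean for Tnp1, 663 times for Tnp2, 718 times for Prm1 and 994 times for Prm2. It was 901 times for Prm3, 847 times for H1fnt and 653 times for Hils1. The Hils1 ratio rests on a pre-meiotic mean that includes a listed 0, and between the second conditions alone it was 279, the lowest of the 7. The pachytene mean was 122 times the pre-meiotic mean for Tnp1 and 277 times for Hils1, but between the second conditions alone the ratio was 154 for Tnp1 and 111 for Hils1. The leptotene/zygotene mean was 6.47 times the pachytene mean for Tnp1, 6.09 times for Tnp2, 6.35 times for Prm1 and 6.68 times for Prm2. It was 5.07 times for Prm3, 4.91 times for H1fnt and 2.36 times for Hils1, the smallest.

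These levels go against the label of the leptotene/zygotene preparation, since none of the 7 genes is known as a gene of early meiosis. The levels at pachytene, though lower, go against that label as well. Genes for transition proteins and protamines are known to be transcribed after meiosis, and Prm2 had 2950.5 and 1989 FPKM at pachytene, the second condition first. Stra8, which is needed to enter meiosis, had 78.6 FPKM in the second and 124 FPKM in the first condition of the pre-meiotic table, 6.43 and 8.36 FPKM at leptotene/zygotene, and 6.05 and 4.08 FPKM at pachytene. Dmc1, a recombinase of early meiotic prophase named after its values were seen, had 12.9 and 24.1 FPKM in the pre-meiotic table, 3.73 and 3.02 FPKM at leptotene/zygotene, and 4.02 and 1.75 FPKM at pachytene. The median level of 24 leptotene/zygotene markers was 19.5 FPKM in the second and 33.2 FPKM in the first condition of the pre-meiotic table, 8.60 and 8.17 FPKM at leptotene/zygotene, and 19.1 and 21.5 FPKM at pachytene. Their summed level went the other way from the pre-meiotic table to leptotene/zygotene, so the reading depends on the measure. It was 733 FPKM in the second and 1061 FPKM in the first condition of the pre-meiotic table. At leptotene/zygotene it was 1433 and 1405 FPKM, and at pachytene 1615 and 1640 FPKM. Not all of these markers were low: Syce2, a synaptonemal complex protein, had 475 and 385 FPKM at leptotene/zygotene. Of the 24, 3 were at least 2-fold higher there than in the pre-meiotic table, Spo11, Syce1 and Syce2, against 21.6% of all genes. Spo11 rose from 1.53 and 4.11 FPKM to 12.0 and 11.0 FPKM, the second condition first, and had 61.4 and 57.4 FPKM at pachytene. Sycp3 had 51.3 and 95.1 FPKM in the pre-meiotic table and 56.6 and 72.0 FPKM at leptotene/zygotene. At pachytene it had 205 and 191 FPKM, so Spo11 and Sycp3 were highest there. Prdm9 fell from 14.4 and 29.0 FPKM to 4.90 and 4.90 FPKM, and had 4.83 and 3.18 FPKM at pachytene. Spo11 and Prdm9 were named after their values were seen. Both preparations are therefore called here by their labels only.

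Markers of elongating spermatids also had their highest summed level at leptotene/zygotene. All 30 of them had at least 1 FPKM in a condition at leptotene/zygotene and at pachytene, and none was at 0 in both conditions there. Their summed level was 101 FPKM in the second and 156 FPKM in the first condition at day 3, 248 and 266 FPKM in the pre-meiotic table, 41497 and 35501 FPKM at leptotene/zygotene, and 11552 and 11923 FPKM at pachytene. Some genes on that list are also expressed without spermatids: Odf2, an outer dense fibre protein with a part in centrosomes, had 56.2 and 103 FPKM at day 3. At leptotene/zygotene, 30 of the 30 were at least 2-fold higher than in the pre-meiotic table, where 16 of the 30 were at least 2-fold higher than at day 3. At pachytene, 19 of the 30 were at least 2-fold lower than at leptotene/zygotene, as were 5 of 28 round spermatid markers and 0 of 21 pachytene markers.

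Of the gene lists compared, the 7 genes had the lowest median difference in log2(FPKM + 0.1), pachytene minus leptotene/zygotene. It was -2.61 for the 7 genes (range -2.75 to -1.25) and -1.61 for the elongating spermatid markers (range -2.69 to 0.70), so the 2 ranges overlap. For the round spermatid markers it was -0.45. It was 0.59 for the pachytene markers, 0.53 for the leptotene/zygotene markers and 0.22 for all genes. The part that spermatids in either preparation have in the levels of the 7 genes was not tested.

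**Figure D3:**
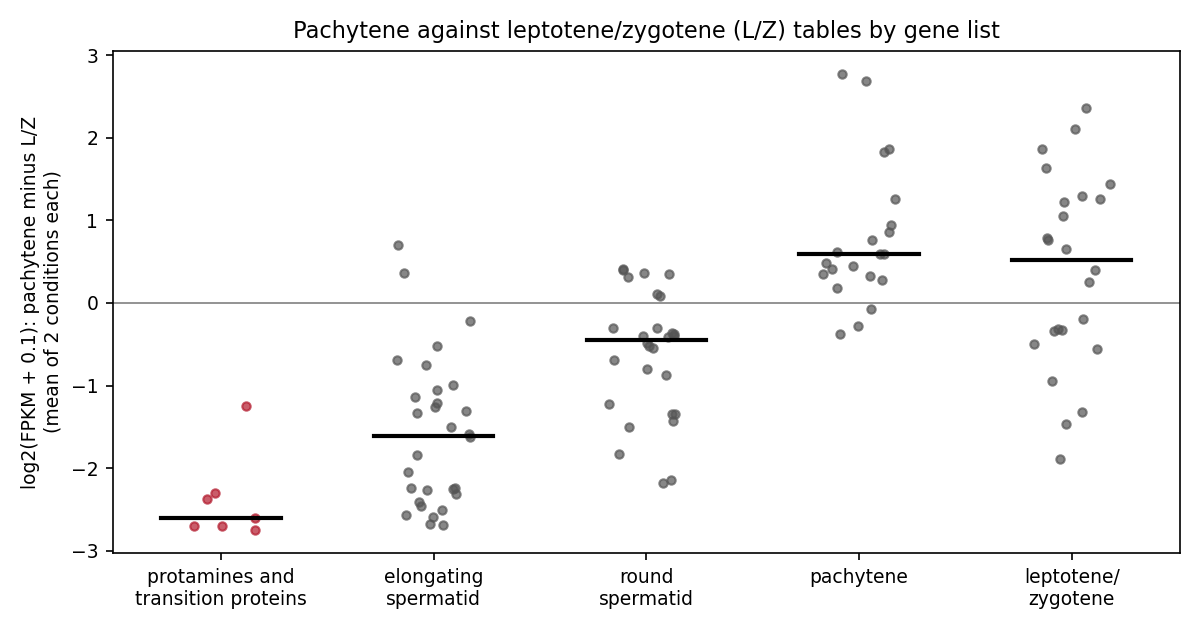
Difference in log2(FPKM + 0.1) between the pachytene and the leptotene/zygotene (L/Z) tables, pachytene minus leptotene/zygotene, each the mean of 2 conditions, with 1 point per gene, points spread sideways for legibility, and a bar at the median of each list. The 7 protamine and transition protein genes lie between -2.75 and -1.25, the elongating spermatid markers have a median of -1.61 and the pachytene markers a median of 0.59.

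Within a table, the question was whether the 7 genes differ between the 2 genotypes, which the tables answer only as second against first condition. At the threshold used here, an authors' q-value of at most 0.05, none of the 7 genes was called in any table. At pachytene 0 of 7 were called, against 1.63% of all 22322 genes tested. Prm1 and Prm2 came nearest to the threshold, both with a higher value in the second condition. In the authors' deposited table the log2 fold of Prm1 at pachytene, second over first condition, was 0.67 with an implied error of 0.20 (p = 0.000928, q = 0.0542). That of Prm2 in the authors' deposited table was 0.57 with an implied error of 0.18 (p = 0.00172, q = 0.0803). The implied error is the log2 fold divided by the test statistic in size, and it covers counting and model error between 2 libraries, not differences between animals.

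The other members at pachytene had smaller or opposite values. Hils1 had a log2 fold of -0.58 with an implied error of 0.24 in the authors' deposited table (p = 0.0146, q = 0.249). Prm3 had -0.61 with an implied error of 0.33 in the authors' deposited table (p = 0.0676, q = 0.494). Tnp1 stood at 0.26 ± 0.19 (q = 0.645), with the implied error after the sign, and Tnp2 at 0.17 ± 0.20 (q = 0.832) in the authors' deposited table. H1fnt was at -0.058 ± 0.23 (q = 0.967) in the authors' deposited table. At an unadjusted p of at most 0.05, 3 of 7 passed at pachytene in the authors' deposited table, Prm1 and Prm2 higher and Hils1 lower in the second condition, against 11.3% of all genes tested. The median log2 ratio of the 7 genes at pachytene was 0.17, against 0.032 for all genes with at least 1 FPKM. Tnp2 and that median changed sign when both conditions were scaled to the same upper quartile, to -0.051 each, a scaling that moved the median of all genes by -0.22.

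In the leptotene/zygotene table, where the transcripts were most abundant, 0 of 7 were called, against 2.14% of the 19524 genes tested. In the authors' deposited table Hils1 had the smallest p of the 7, with a log2 fold of -0.42 ± 0.15 (implied error; p = 0.00691, q = 0.160). Prm2 had 0.41 ± 0.25 (q = 0.548), Prm1 0.22 ± 0.18 (q = 0.692) and Tnp1 0.19 ± 0.20 (q = 0.775) in the authors' deposited table. H1fnt was at 0.12 ± 0.16 (q = 0.847), Tnp2 at 0.050 ± 0.19 (q = 0.966) and Prm3 at -0.097 ± 0.17 (q = 0.892) in the authors' deposited table. Hils1 was the only 1 of the 7 to pass an unadjusted p of at most 0.05, against 11.5% of all genes tested. The median log2 ratio was 0.12, against -0.070 for all genes. Prm3 changed sign here under upper-quartile scaling, which moved the median of all genes by 0.11.

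Hils1 and Prm3 had a lower value in the second condition at both stages, Tnp1, Tnp2, Prm1 and Prm2 a higher value, and H1fnt a higher value at leptotene/zygotene and a lower one at pachytene. Under upper-quartile scaling Prm3 at leptotene/zygotene and Tnp2 at pachytene change sign. Nothing says that the second condition is the same genotype in both tables, so the direction cannot be carried from one table to the other. Ago4, listed under its older symbol Eif2c4, had 12.1 FPKM in the second and 4.37 FPKM in the first condition at pachytene and 3.26 and 1.67 FPKM at leptotene/zygotene, and these values were not used to name a genotype.

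**Figure D4:**
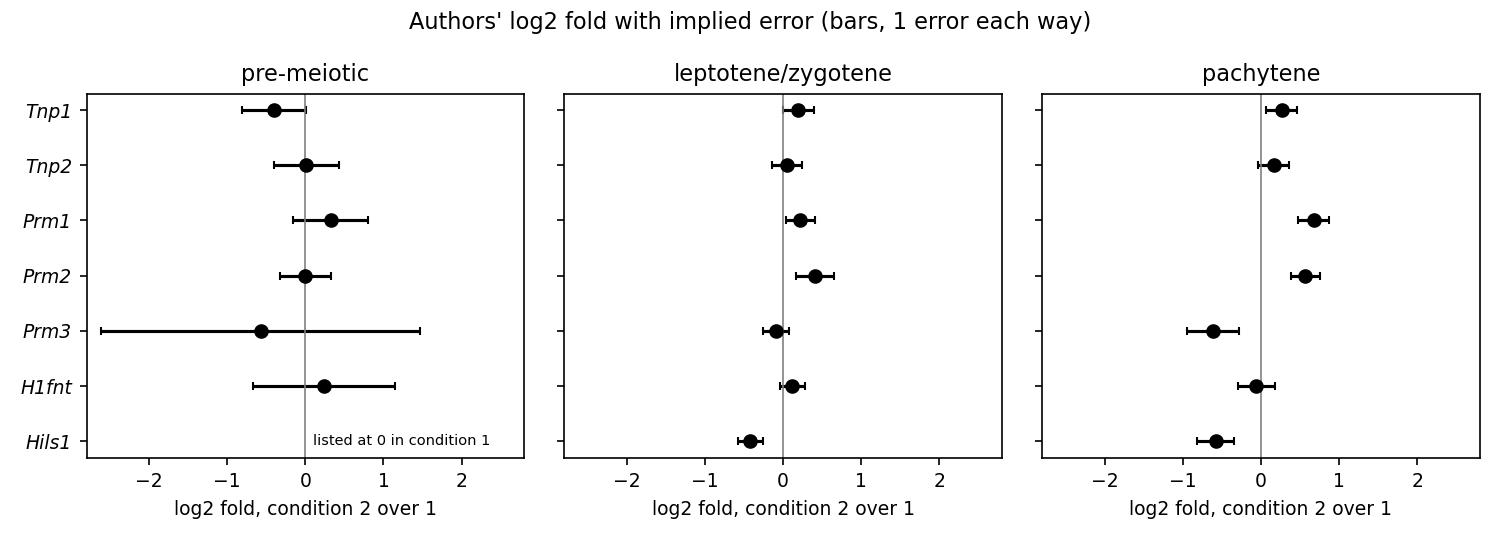
Log2 fold of each gene, second over first condition, from the authors' deposited table, in the pre-meiotic, leptotene/zygotene and pachytene tables, with bars for 1 implied error each way. At pachytene Prm1 lies at 0.67 and Prm2 at 0.57, above 0, and Hils1 at -0.58 below it, and none of the 7 has a q-value of at most 0.05.

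In the young testis the levels were low and the folds had wide errors. Of the 7 genes, 0 were called in the pre-meiotic table, against 1.15% of the 20154 genes tested. The 4 abundant genes had log2 folds of -0.40 ± 0.40 for Tnp1, 0.014 ± 0.42 for Tnp2, 0.32 ± 0.48 for Prm1 and -0.00026 ± 0.32 for Prm2 (implied errors), with q-values of 0.775, 0.997, 0.876 and 0.9997 in the authors' deposited table. The only member with an unadjusted p of at most 0.05 there was Hils1 (p = 0.00234, q = 0.121 in the authors' deposited table), against 10.5% of all genes, and no fold is given because it was listed at 0 in the first condition. Prm3 and H1fnt were near or below 1 FPKM, and their implied errors in the authors' deposited table were 2.04 and 0.90. At day 3 the table tested 5 of the 7 genes and called 0, against 14.8% of the 24020 genes tested. H1fnt and Hils1 were marked there as not tested. Prm1, listed at 0 in the second condition, had p = 0.0228 and q = 0.109 in the authors' deposited table, and was the only one of the 5 with an unadjusted p of at most 0.05, against 27.0% of all genes. The median log2 ratio of the 7 genes was -0.55 at day 3, where only Tnp1 reached 1 FPKM in either condition, and 0.014 for the pre-meiotic material.

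Markers of peritubular, vessel, blood and immune cells differed between the conditions of the pre-meiotic and the spermatocyte tables. No Sertoli or Leydig cell marker was called in the spermatocyte tables. Their median levels lay between 0.788 and 2.74 FPKM there and few genes were tested, so the absence of calls sets no contrast. Of 23 peritubular, vessel, blood and immune markers, 11 were called higher in the second condition and 0 lower at leptotene/zygotene, against 2.14% of all genes tested. At pachytene 8 of the 23 were called higher and 0 lower, against 1.63% of all genes tested. Their summed level was 434 FPKM in the second and 66.8 FPKM in the first condition at leptotene/zygotene, and 105 and 26.9 FPKM at pachytene. Hbb-b1, a haemoglobin chain of red blood cells, had 116 and 13.5 FPKM at leptotene/zygotene. The elongating spermatid markers summed to 11552 FPKM in the second and 11923 FPKM in the first condition at pachytene, where Prm1 and Prm2 were higher in the second. Of these 30 markers, 4 were called lower and 0 higher there. At leptotene/zygotene they summed to 41497 FPKM in the second and 35501 FPKM in the first condition. Tnp1, Tnp2, Prm1 and Prm2 were also higher in the second condition at that stage. Of the 30 markers, 3 were called higher and 2 lower at leptotene/zygotene. The part of cell mixture in the differences of the 7 genes was not tested.

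The genes that act around the 7 were described by 3 lists: histone variants and histone removal, transcription regulators of spermatids, and proteins that store and translate spermatid mRNA. In the list of 28 genes for histone variants and histone removal, 0 were called higher and 3 lower in the second condition at leptotene/zygotene. These were H3f3b, which encodes the replacement histone H3.3 (98.5 FPKM in the second and 148 FPKM in the first condition, log2 fold -0.59 ± 0.13, implied error, q = 0.00144 in the authors' deposited table), Cdyl, a chromodomain protein (46.5 and 76.2 FPKM, -0.71 ± 0.16, q = 0.00174 in the authors' deposited table), and Piwil1, the piRNA-binding protein MIWI (24.8 and 37.2 FPKM, -0.59 ± 0.17, q = 0.0402 in the authors' deposited table). None (0 of the 28) was called at pachytene or in the pre-meiotic table. The share of all genes tested that were called was 2.14% at leptotene/zygotene, 1.63% at pachytene and 1.15% in the pre-meiotic table. Chd5, a chromatin remodeller needed for histone removal in mouse spermatids, had 53.8 FPKM in the second and 125 FPKM in the first condition at pachytene, with q = 0.0591 in the authors' deposited table. At day 3, where 14.8% of all genes were called, 1 was called higher, H2afz, the histone variant H2A.Z (280.4 and 179.7 FPKM), and 5 lower, among them Psme4, a proteasome activator (26.4 FPKM in the second and 37.8 FPKM in the first condition).

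Of 23 transcription regulators of spermatids, 0 were called higher and 2 lower at pachytene. Sox5 had 59.1 FPKM in the second and 101 FPKM in the first condition (log2 fold -0.78 ± 0.23, implied error, in the authors' deposited table, with q = 0.0437). Kif17, a kinesin that in the mouse is known to move the CREM coactivator ACT out of the nucleus, had 79.3 and 114 FPKM (-0.53 ± 0.13, q = 0.0101 in the authors' deposited table). Fhl5, which encodes ACT itself, was the only gene of this list called at leptotene/zygotene, with 147 FPKM in the second and 212 FPKM in the first condition (-0.53 ± 0.11, q = 0.000424 in the authors' deposited table). Called lower in the pre-meiotic table were 2 genes, Taf7l, a germ cell subunit of the TFIID family (138 and 194 FPKM), and Ctcfl, a testis paralogue of CTCF (2.65 and 6.10 FPKM). Among all genes tested, 1.63% were called at pachytene, 2.14% at leptotene/zygotene and 1.15% in the pre-meiotic table. At day 3, against 14.8% of all genes called, 1 of the 23 was called higher, Taf10, and 4 lower, Fhl5, Sox5, Mybl1 and Tcfl5. Over the whole list, the median log2 ratio was 0.0085 at pachytene and -0.032 at leptotene/zygotene.

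Of 29 measured genes for storage and translation of spermatid mRNA, 0 were called at pachytene, and 1 was called lower and 0 higher at leptotene/zygotene. It was Tdrd7, a protein of the chromatoid body, with 199.2 FPKM in the second and 282 FPKM in the first condition (log2 fold -0.50 ± 0.14, implied error, q = 0.0165 in the authors' deposited table). Called lower in the pre-meiotic table were 3 genes: Dazl, an RNA-binding protein of germ cells, with 174 and 233 FPKM, Rnf17 with 26.4 and 34.8 FPKM, and Nxf2 with 56.5 and 72.1 FPKM. Leptotene/zygotene markers went the same way: 9 of 24 were called lower and 0 higher there, with a median log2 ratio of -0.55. Spermatogonia markers did not, with 11 of 20 higher in the second condition. The part of cell mixture in these calls was not tested. The shares of all genes tested that were called were 1.63% at pachytene, 2.14% at leptotene/zygotene and 1.15% in the pre-meiotic table. At day 3, where 14.8% of all genes were called, 5 of the 29 were called lower and 0 higher, among them Celf1 with 51.2 FPKM in the second and 91.5 FPKM in the first condition.

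The genes whose profile over the 8 conditions was most like that of the 4 abundant members were 8 genes in 20 places, 3 of them members themselves. Likeness was measured as the root mean square difference of log2(FPKM + 0.1) after each profile was centred on its mean, among 11267 genes with at least 10 FPKM in a condition and an established name, and it is a description with no test. Nearest to Tnp1 were Iqcf3 (0.33), Akap4 (0.36), Tnp2 (0.36), Spz1 (0.38) and Oaz3 (0.43). Akap4 is the main scaffold of the fibrous sheath, Spz1 a transcription factor of spermatogenic cells and Oaz3 a testis form of antizyme. Nearest to Tnp2 were Spz1 (0.32), Tnp1 (0.36), Akap4 (0.40), Iqcf3 (0.43) and Prm1 (0.57). Prm1 had Tnp2 (0.57), Tnp1 (0.71), Smcp (0.72), Spz1 (0.75) and Akap4 (0.89) as its nearest, and Prm2 had Smcp (0.45) well before Tnp2 (1.03), Prm1 (1.05), Spz1 (1.095) and Akap4 (1.28). Smcp encodes a cysteine-rich protein of the sperm mitochondrial capsule, and it had 7065 FPKM in the second and 5899.9 FPKM in the first condition at leptotene/zygotene and 1121 and 1236 FPKM at pachytene. Low values at day 3 and in the pre-meiotic table weigh heavily in this measure: with 1 FPKM added in place of 0.1, 10 of these 20 places were kept.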

How the data were processed

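Per the labels' protocols, RNA was extracted in Trizol and libraries came from a TruSeq RNA kit, with no mention of strand. The submitters' processing notes list Bowtie 0.12.7, TopHat 1.3.0, Cuffdiff and Cufflinks 1.1.0. No source used here names the genome build. The authors deposited 4 tables, each with FPKM for 2 numbered conditions, per the file headers. The authors also deposited, per the file headers, a log2 fold, a test statistic (a score), a p-value and a q-value for each gene. Where 1 condition is at 0, the authors' deposited log2 fold column holds an extreme number for an infinite ratio, so that column is treated as a score and no fold is given there. The 2 small RNA libraries were not used here.

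The authors' fold, p-value and q-value were copied, not recomputed, and a gene is called at q of at most 0.05. Log2 ratios, second over first condition, were computed from FPKM with 0.1 added. With 1 library per genotype and stage there are no replicates. Depth is unknown, so precision is given only by the implied error. Library sizes were not computed. The members, the 11 gene lists and the tests were chosen with earlier results of these data known. Named genes are the 7 members, Ago4, called genes of the 3 pathway lists (else the 3 with the largest ratio), up to 3 genes of each marker list by level, and the 5 nearest profiles of Tnp1, Tnp2, Prm1 and Prm2. Not every gene the rule allows is printed, and Dmc1, Spo11, Prdm9, Socs1 and Sgca stand outside it. So do H2afb1, Spert, Lelp1, Odf1, Actrt2, Spanxn4 and Theg, named in the closing section as near to H1fnt, Prm3 or Hils1. The other marker lists (spermatogonia, Sertoli and Leydig cells) are given in the closing section. Scripts were checked on simulated data. Computations used Python 3.11.15, numpy 2.4.6 and pandas 2.3.3. Alternatives were another pseudocount, scaling, q threshold, fold and choice of condition, and leaving out the chromosome 16 cluster.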

Additional observations from a re-analysis of the deposited data

How the results depend on the processing

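No paired analysis was possible because each table has 1 library per condition and the conditions carry no replicate number. Of the single member ratios under other settings, 111 stayed within 1 implied error of the values reported and 4 moved, all at pachytene under upper-quartile scaling: Tnp1 to 0.047, Tnp2 to -0.051, Prm1 to 0.46 and Prm2 to 0.35. The median log2 ratio of the 7 genes at pachytene, 0.17 as reported, was -0.051 under upper-quartile scaling and -0.058 without the chromosome 16 cluster, which removes 4 of the 7 genes. At a q-value of at most 0.1, 2 genes were called at pachytene, Prm1 and Prm2. The median level of the 7 genes was 6.30 higher on the log2 scale in the pre-meiotic table than at day 3, and this became 7.56 with 0.01 FPKM added, 3.62 with 1 FPKM added and 5.55 from the first conditions alone; the day 3 levels lie near the number added, and for the first conditions the cause was not tested. The difference of 9.36 between leptotene/zygotene and pre-meiotic tables was 8.90 with equal totals and 10.06 with equal upper quartiles. The difference between pachytene and leptotene/zygotene, -2.61, kept its direction under these scalings, and 0 genes were higher at pachytene. With the pre-meiotic table in place of the leptotene/zygotene table, a comparison added after seeing the data, the difference was 6.75 and 7 of the 7 genes were higher at pachytene. The count of genes higher in the pre-meiotic table than at day 3, 6 as reported, was 4 with 1 FPKM added and 5 at 4-fold. Depth is unknown, and 1 library stands behind each value.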

Other observations

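The 3 less abundant members had other neighbours by profile than the 4 abundant ones, described here after their values were seen and by the same root mean square difference. Nearest to H1fnt were H2afb1 (0.18), a histone H2A variant gene, Spert (0.19), Lelp1 (0.20) and Odf1 (0.20), an outer dense fibre protein of the sperm tail. H2afb1 had 633 FPKM in the second and 591 FPKM in the first condition at leptotene/zygotene, and 111 and 95.8 FPKM at pachytene, close to H1fnt in level as well. Nearest to Prm3 were Actrt2 (0.30), an actin-related protein, and Gsg1 (0.38), and the other genes of the chromosome 16 cluster were not among its 5 nearest. The 5 genes nearest to Hils1, led by Spanxn4 (0.52) and Theg (0.57), were all listed at 0 in the first condition of the pre-meiotic table, as Hils1 was. Such a listed 0 weighs heavily in this measure, so the shared 0 is in part built into the choice of neighbours. The check with 1 FPKM added was not made for these 3 members.

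Markers of somatic testis cells were low in both spermatocyte tables. The 18 Sertoli cell markers had a summed level of 96.8 FPKM in the second and 120.04 FPKM in the first condition at leptotene/zygotene, against 5020.3 and 4735 FPKM in the pre-meiotic table. The 11 Leydig cell markers summed to 21.3 and 19.8 FPKM at leptotene/zygotene and to 62.2 and 61.2 FPKM at pachytene. Of the 20 spermatogonia markers, 0 were called at leptotene/zygotene or pachytene, against 2.14% and 1.63% of all genes tested. Their median level was 1.32 FPKM in the second and 1.75 FPKM in the first condition at leptotene/zygotene, against 20.5 and 20.8 FPKM in the pre-meiotic table. Their summed level fell far less, from 895 and 969 FPKM to 763 and 777 FPKM, and was 1161 and 1075 FPKM at pachytene. The reading thus depends on the measure. Dmrtb1 (439 and 445 FPKM) and Ddx4 (271 and 272 FPKM) held most of the sum at leptotene/zygotene.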
